A study of Mus musculus with 4 samples.

Results

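Genes of the TGF-beta and BMP signalling pathways were examined in a map of accessible chromatin from mouse brain parenchymal macrophages. The set comprised 32 genes, chosen by name, and every merged peak whose centre lay inside such a gene, or nearest to it among protein-coding genes within 100 kb, was assigned to it. This gave 303 of the 74695 merged peaks (0.406%). The TGF-beta branch, which includes the activin type I receptor gene Acvr1b, had 16 genes and 154 peaks. The BMP branch had 11 genes and 108 peaks, and 5 genes that serve both branches had 41 peaks. At least 1 peak was found at 31 of the 32 genes, the exception being Bmpr1b.

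Accessibility was measured by Omni-ATAC, in which the transposase Tn5 cuts and tags DNA where nucleosomes leave it exposed. The 4 libraries were labelled MDM1, MDM2, YSM1 and YSM2, 2 per group. MDM stands for monocyte-derived macrophages in the series title, and YSM is not spelled out in the labels. Both groups had the genotype Ms4a3-Ai9 and the treatment DR-3x, a code that the labels do not explain. Ms4a3 is active in progenitors of granulocytes and monocytes, and Ai9 is a red fluorescent reporter allele switched on by Cre recombinase. The labels do not state the age of the mice, the gate that separated MDM from YSM cells, or if replicate libraries are from different animals.

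The deposited data were a merged peak list and the authors' lists of differential peaks, 1 per group, with no value per library. A peak in the MDM list or the YSM list was taken, from the list's name, as more accessible in that group. The spread between replicates therefore could not be measured, and no test was made. Each merged peak carried its number of subpeaks, the library-level peak calls that had been joined into it. A peak with at most 3 subpeaks lacked a call in at least 1 library, and a peak with 4 or more may have had a call in each. All 12 macrophage and microglia markers examined, among them Csf1r, Spi1 and P2ry12, had a merged peak with 4 or more subpeaks. Of the monocyte markers Ccr2, Ly6c2 and Plac8 had such a peak and Ms4a3 had no merged peak. The neutrophil markers S100a8, Ly6g and Mpo had no merged peak. Markers of other cell types also had peaks with 4 or more subpeaks, at 1 of 3 neuronal, 3 of 4 astrocyte, 2 of 3 oligodendrocyte, 3 of 3 endothelial and 1 of 3 lymphocyte genes. No marker had an MDM-listed peak, against 0.145% of all merged peaks. None of the 95 peaks at the macrophage and microglia markers was YSM-listed, against 1.48% of all merged peaks. At that share 0 of 95 does not set these markers apart. YSM-listed peaks lay at glial markers, 7 of 26 peaks at the astrocyte gene Slc1a3, and 1 of 20 at Mbp and 1 of 3 at Mog, both oligodendrocyte genes. Whether cells of these types were present was not tested.

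Ligands of the TGF-beta family bind pairs of type I and type II receptors, which phosphorylate receptor SMAD proteins. SMAD2 and SMAD3 carry the TGF-beta and activin signal and SMAD1 and SMAD5 the BMP signal, and both kinds enter the nucleus with the common partner SMAD4. TGF-beta is secreted in a latent form that must be released at the cell surface or in the matrix. In mice, TGF-beta signalling through Tgfbr2 is known to be needed for microglia to keep their mature state, and Nrros holds latent TGF-beta on the microglial surface.

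No peak at these genes was in the MDM list, and 3 were in the YSM list, at Bmpr1a, Smad1 and Ltbp3. The glial markers Slc1a3, Mbp and Mog also had YSM-listed peaks, and the part of other cell types in this result was not tested. Over all merged peaks 0.145% were MDM-listed and 1.48% YSM-listed. At these shares 303 peaks would hold 0.438 MDM-listed and 4.48 YSM-listed peaks, so that neither count sets these genes apart from the rest of the map. The 0 of 303 MDM-listed peaks allows a share of up to 0.99%, taken as 3 counts in 303 and not as a Wilson limit. The YSM-listed share was 0.99% (95% Wilson interval 0.337 to 2.87). It was 1.63% among peaks inside these genes, against 1.51% of all peaks inside a protein-coding gene, and 0.556% among peaks with at least 4 subpeaks, against 0.726% of all such peaks. These limits cover counting error only, and peaks of 1 gene are not independent. The BMP branch held 0 MDM-listed and 2 YSM-listed peaks among 108, the TGF-beta branch 0 and 1 among 154, and the shared genes 0 and 0 among 41.

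The promoters of the genes with a YSM-listed peak are printed first, followed by that of Smad6, whose window was the only 1 of the 34 searched to hold the palindromic SMAD element. Each window runs from 250 bases before to 50 bases after a transcription start annotated by RefSeq (GRCm38.p6, the assembly behind mm10) and is written 5′ to 3′ along the gene. Capitals mark the bases that lay inside a merged peak.
Bmpr1a, chr14:34502497-34502796, minus strand: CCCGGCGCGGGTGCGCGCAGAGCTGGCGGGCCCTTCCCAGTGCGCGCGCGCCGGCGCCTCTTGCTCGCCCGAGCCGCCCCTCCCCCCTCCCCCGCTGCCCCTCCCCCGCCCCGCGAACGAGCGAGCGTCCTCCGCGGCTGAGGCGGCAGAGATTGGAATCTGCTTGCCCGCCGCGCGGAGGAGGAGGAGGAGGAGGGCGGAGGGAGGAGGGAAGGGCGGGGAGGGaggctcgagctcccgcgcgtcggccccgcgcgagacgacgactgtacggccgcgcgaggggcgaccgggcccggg
Smad1, chr8:79399379-79399678, minus strand: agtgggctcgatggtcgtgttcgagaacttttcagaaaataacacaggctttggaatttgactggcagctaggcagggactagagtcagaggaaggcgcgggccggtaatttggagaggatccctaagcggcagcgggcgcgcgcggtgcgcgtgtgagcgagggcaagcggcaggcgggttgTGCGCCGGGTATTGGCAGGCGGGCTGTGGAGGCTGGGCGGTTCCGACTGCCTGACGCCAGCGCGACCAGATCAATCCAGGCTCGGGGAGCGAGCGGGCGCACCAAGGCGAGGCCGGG
Ltbp3, chr19:5740650-5740949, plus strand: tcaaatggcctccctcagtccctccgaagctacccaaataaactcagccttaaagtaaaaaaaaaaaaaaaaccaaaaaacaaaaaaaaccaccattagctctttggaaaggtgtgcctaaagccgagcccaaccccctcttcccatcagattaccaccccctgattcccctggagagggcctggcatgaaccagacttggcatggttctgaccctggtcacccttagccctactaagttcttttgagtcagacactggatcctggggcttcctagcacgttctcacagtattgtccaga
Smad6, chr9:64022010-64022309, minus strand: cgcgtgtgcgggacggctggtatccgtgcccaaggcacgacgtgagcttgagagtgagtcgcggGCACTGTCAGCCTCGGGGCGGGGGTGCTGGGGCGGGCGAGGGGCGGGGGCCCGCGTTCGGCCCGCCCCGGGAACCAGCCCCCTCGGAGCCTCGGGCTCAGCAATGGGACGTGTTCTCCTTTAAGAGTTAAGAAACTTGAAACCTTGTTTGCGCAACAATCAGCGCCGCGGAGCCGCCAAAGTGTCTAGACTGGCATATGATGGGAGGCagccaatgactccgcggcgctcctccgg

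In Bmpr1a the capitals are the YSM-listed peak itself, which covered bases 1 to 225 of the window. In Smad1 the 117 capitals belong to a peak of 4 subpeaks in neither list, and the YSM-listed peak lay elsewhere in the gene. The Ltbp3 window held no peak and its letters are all lower case. The Bmpr1a window had a GC content of 79.3%, against 65% in Smad1, 48% in Ltbp3 and 66.3% in Smad6.

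Bmpr1a, the gene of a type I BMP receptor, had its YSM-listed peak at its start. The peak spanned chr14:34502572-34502949 (378 bp, 4 subpeaks) and ran from 403 to 26 bp upstream of the annotated start. The RefSeq gene interval extends beyond this start to 34503336, so that the peak counted as inside the gene. The other 6 peaks of Bmpr1a were all inside the gene, each 201 bp wide with 1 subpeak. They lay 163 bp, 427 bp, 12511 bp, 13330 bp, 13582 bp and 61775 bp downstream of the start. The listed peak was thus the only Bmpr1a peak that can have been called in all 4 libraries, and each of the others was called in 1 library.

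Smad1, the gene of a SMAD protein that carries the BMP signal, had its YSM-listed peak inside the gene. It spanned chr8:79389309-79389571 (263 bp, 2 subpeaks), with its centre 9988 bp downstream of the start. At least 2 libraries lacked a call there. The neighbouring Smad1 peak at chr8:79392250-79393042 had 8 subpeaks, the most of any BMP branch peak, and was in neither list. Smad1 had 18 peaks in all, of which 10 were inside the gene, 11 had 4 or more subpeaks and 17 were in neither list. The farthest lay 99386 bp upstream.

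Ltbp3, the gene of a matrix protein that binds latent TGF-beta, had 2 peaks. The YSM-listed peak spanned chr19:5751787-5751992 (206 bp, 2 subpeaks) and lay inside the gene, 10989 bp downstream of the start. The other, chr19:5741781-5742273, had 4 subpeaks and lay 1127 bp downstream of the start, in neither list. Neither the Smad1 nor the Ltbp3 listed peak had another YSM-listed peak within 50 kb, and the Bmpr1a peak had 1. That neighbour, chr14:34540526-34540759, lay inside Ldb3.

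**Figure D1:**
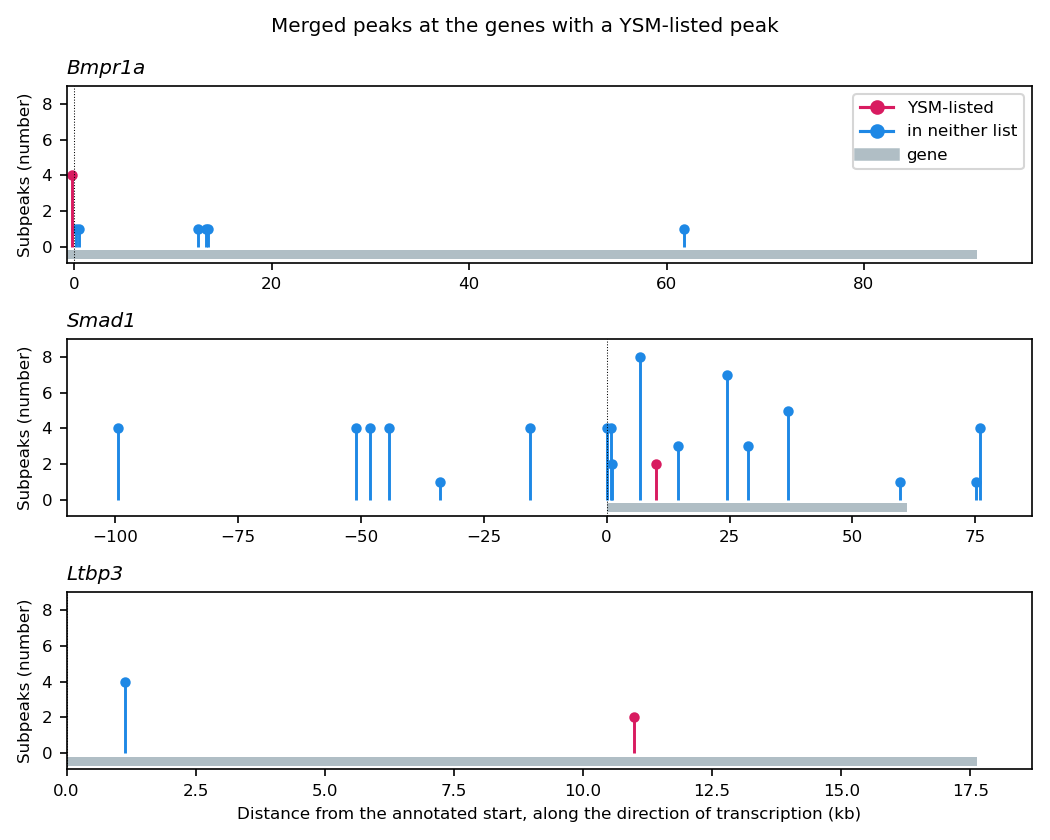
Merged peaks at Bmpr1a, Smad1 and Ltbp3, with the distance of each peak centre from the annotated start on the x axis (kb, along transcription) and its number of subpeaks on the y axis. The YSM-listed peak of Bmpr1a sits at the start with 4 subpeaks, and those of Smad1 and Ltbp3 lie about 10 kb into the gene with 2 subpeaks each, beside unlisted peaks with more.

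Among the ligand genes, Tgfb1 had 4 peaks and Tgfb2 had 3, of which 3 and 2 had 4 or more subpeaks. Tgfb1 encodes the TGF-beta that macrophages chiefly make, and its peak at chr7:25686925-25687131 (4 subpeaks) spanned the annotated start. Tgfb3 had 2 peaks, 1 of them with 5 subpeaks 363 bp from the gene. Bmp2, the BMP ligand gene, had 10 peaks, of which 8 had exactly 4 subpeaks and 1 lay inside the gene. The other 9 Bmp2 peaks lay 1707 to 93197 bp away. None of the 19 ligand gene peaks was in either list. Over all merged peaks 0.145% were MDM-listed and 1.48% YSM-listed, so 0 of 19 does not set the ligand genes apart.

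Genes of latency and activation had 20 peaks, of which 13 (65%) had at most 3 subpeaks, against 42.3% of all merged peaks. Of these 13, 9 were at Ltbp1, 3 at Nrros and 1 at Ltbp3, so the high share rests on Ltbp1. Ltbp1, which spans 387 kb, had 11 peaks, and 7 of them had 1 subpeak. Nrros had 7 peaks, with 4 subpeaks in the peak over its start (chr16:32165500-32165731) and 6 in a peak 5598 bp upstream (chr16:32170994-32171390). Of the other 5 Nrros peaks, 2 had 4 subpeaks and 3 had 1.

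The TGF-beta receptor genes had 50 peaks, with 28 at Tgfbr2, the most of any gene in the set. Tgfbr2 encodes the type II receptor that binds TGF-beta. It had 16 of its peaks inside the gene and the others up to 95115 bp away, and 20 of the 28 had 4 or more subpeaks. Of all protein-coding genes, 0.704% had as many peaks or more. The type I receptor gene Tgfbr1 had 11 peaks, 6 of them with at most 3 subpeaks. Acvr1b had 9 peaks, of which 8 had 4 or more subpeaks, up to 8 in the peak chr15:101187920-101188462 inside the gene. Tgfbr3, which encodes the co-receptor betaglycan, had 2 peaks with 1 subpeak each. The receptors that act in TGF-beta signalling thus ranged from 28 peaks to 2 in number.

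The BMP receptor genes had 46 peaks, with 14 at Acvr1, 10 at Acvrl1, 9 at Bmpr2, 7 at Bmpr1a, 6 at Eng and 0 at Bmpr1b. All 14 Acvr1 peaks lay inside the gene, which encodes a type I receptor. Acvrl1, a type I receptor gene best known from endothelium, had 7 peaks with 4 or more subpeaks. Eng encodes the co-receptor endoglin, and its peak at chr2:32646510-32646852 (4 subpeaks) spanned the start. At Bmpr1b, a type I receptor gene of 332 kb, the nearest merged peak lay 73.8 kb from the gene, had 3 subpeaks and was assigned to Pdlim5. The type I BMP receptors Bmpr1a and Bmpr1b thus differed in that the first had a YSM-listed promoter peak and the other no peak at all. Between the shared type II receptor genes, Acvr2b had 11 peaks, 10 inside the gene, and Acvr2a had 8, of which 3 were inside.

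The SMAD genes of the TGF-beta branch had 32 peaks and those of the BMP branch 22. Smad3 had 23 and Smad2 had 9, against 18 at Smad1 and 4 at Smad5. At Smad3, 17 of 23 peaks had 4 or more subpeaks, and 13 of those 17 lay inside the gene or at its start. The promoter peak, chr9:63758031-63758285, had 4 subpeaks. At Smad5 the peak over the first start, chr13:56702979-56703356, had 6 subpeaks. Smad4 had 7 peaks, of which 3 had 4 subpeaks and 4 had fewer.

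The 7 genes of inhibitors and co-repressors had 73 peaks, 46 of them (63%) with 4 or more subpeaks and 0 in either list. Over all merged peaks, 43114 of 74695 had 4 or more subpeaks, 0.145% were MDM-listed and 1.48% YSM-listed. At these shares the 0 listed peaks among 73 do not set the genes apart. Smad6, which encodes an inhibitory SMAD of the BMP branch, had 22 peaks, of which 14 had at most 3 subpeaks and 8 had exactly 4. Smad7, its counterpart that acts on both branches, had 7 peaks, and 6 of them had 4 subpeaks. The ubiquitin ligase genes Smurf1 and Smurf2, whose products mark SMADs and receptors for breakdown, had 8 peaks each. Ski and Skil encode co-repressors that hold SMAD target genes off. Ski had 14 peaks, 12 inside the gene, with up to 8 subpeaks (chr4:155178959-155179492), and 7 of the 8 Skil peaks had 4 or more. Tgif1, a homeobox co-repressor gene, had 6 peaks. Tgfbi, a matrix protein gene switched on by TGF-beta, had 15 peaks, and 11 had 4 or more subpeaks. Its peak at chr13:56658084-56658534, 18950 bp from the gene, had 8.

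**Figure D2:**
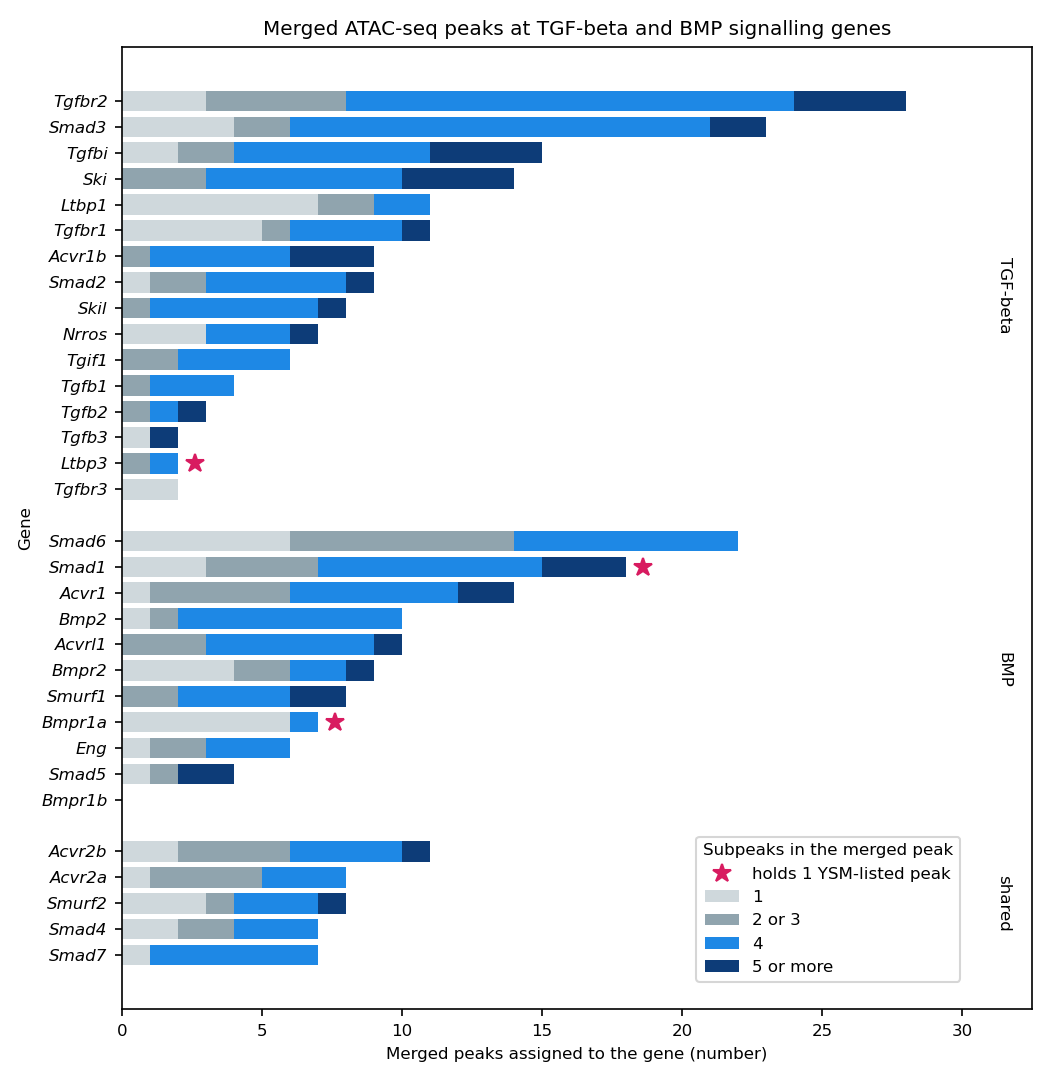
Number of merged peaks (x axis) at each of the 32 genes (y axis), grouped by branch, with bar segments by subpeak number and a star beside each gene with a YSM-listed peak. Tgfbr2 leads with 28 peaks and Bmpr1b has 0, and the starred genes Ltbp3, Smad1 and Bmpr1a hold 2, 18 and 7.

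The number of peaks per gene was higher in the set than over all genes. The median was 8 peaks over the 32 genes, with 8.5 in the TGF-beta branch, 9 in the BMP branch and 8 among the shared genes, against 2 over all 21887 protein-coding genes. The 32 genes were also longer, with a median of 65.1 kb against 17.2 kb. Among the 5086 protein-coding genes of 28.4 to 90.1 kb, the middle range of the set's own lengths, the median was 3. Their median length was 46.1 kb, and the median of 8 includes genes of the set outside this range. The comparison was thus not matched for length. At least 1 peak was assigned to 96.9% of the set and to 70.3% of protein-coding genes, and to 85.3% of those in the length range. A peak centre lay within 1000 bp of either gene end at 30 of the 32 (93.8%), Bmpr1b and Ltbp3 being the exceptions, and at 56.8% of protein-coding genes. These differences were not tested, and the part of gene length in them was not tested beyond the length range given. The share of peaks inside the gene was 60.7% (95% Wilson interval 55.1 to 66.1) in the set and 62.9% over all assigned peaks. Peaks outside lay a median of 13073 bp away in the TGF-beta branch and 24924.5 bp in the BMP branch and 7331.5 bp at the shared genes, against 9881 bp over all assigned peaks. The order of the TGF-beta and BMP branches differed by role. The medians were 11004 and 1224 bp at receptor genes, 40301 and 39174.5 bp at SMAD genes, and 875 and 54274 bp at ligand genes.

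At most 3 subpeaks were found in 33.8% of TGF-beta branch peaks (52 of 154, 95% Wilson interval 26.8 to 41.5) and in 47.2% of BMP branch peaks (51 of 108, 38.1 to 56.6). The intervals overlapped, no test was made, and the share over all merged peaks was 42.3%. The BMP share was 43% without Smad6, and the TGF-beta share was 30.1% without Ltbp1. Peaks with 5 or more subpeaks made up 14.9% of the TGF-beta branch, 10.2% of the BMP branch and 4.88% of the shared genes, against 11.3% of all merged peaks. Among peaks with at most 3 subpeaks, 0 of 123 in the set were MDM-listed and 2 were YSM-listed (1.63%), against 0.0412% and 2.5% over all merged peaks of that kind. Among peaks with 4 or more, 0 of 180 were MDM-listed and 1 was YSM-listed (0.556%), against 0.22% and 0.726%.

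**Figure D3:**
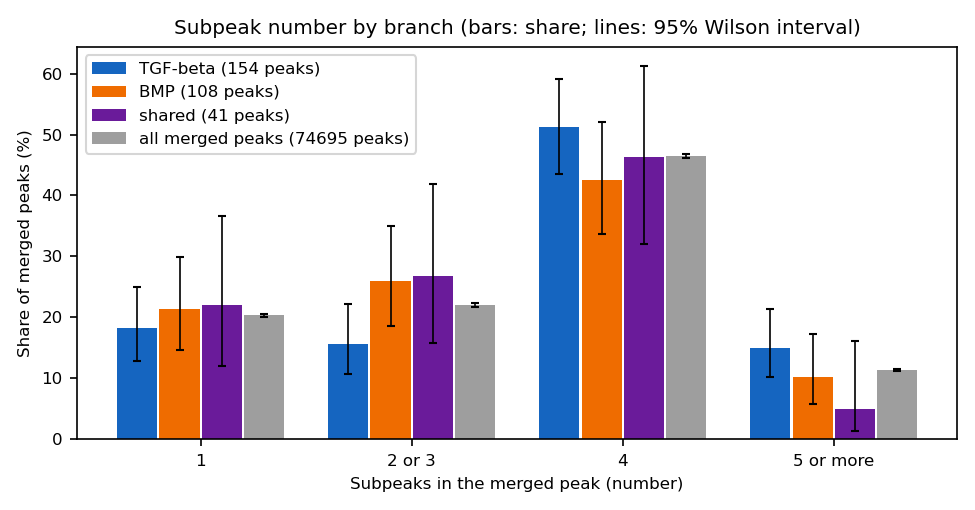
Share of merged peaks (y axis, %) by number of subpeaks (x axis) in the TGF-beta branch, the BMP branch, the shared genes and all merged peaks, with lines for 95% Wilson intervals. Peaks of 4 subpeaks are the commonest class in every set, from 42.6% in the BMP branch to 51.3% in the TGF-beta branch.

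Positions were measured from the annotated start for the 23 genes that had a start in the promoter table and at least 1 peak. Of their 248 peaks, 33 (13.3%) lay within 1000 bp of a start, 31 at 1 to 10 kb, 173 (69.8%) at 10 to 100 kb and 11 farther off. The share with 4 or more subpeaks was 69.7% within 1000 bp, 64.5% at 1 to 10 kb, 56.1% at 10 to 100 kb and 18.2% in the 11 peaks beyond. Within 1000 bp of a start, 11 of 13 TGF-beta branch peaks and 9 of 15 BMP branch peaks had 4 or more subpeaks. These are counts of peaks and not of promoters, and the share over all peaks near starts was not computed. The BMP branch peaks with fewer at Bmpr1a, Bmpr2, Eng and Smad5 lay beside a peak of 4 or more within 1000 bp of a start. Acvr1 had no such peak assigned to it. The TGF-beta branch peaks with fewer were at Ltbp1. A merged peak overlapped the promoter window of 19 of the 24 genes with a window (79.2%). Over the promoter table this was so at 9224 of 10251 protein-coding genes (90%). That table is no neutral background, since 10250 of its 10251 genes had a merged peak within 1000 bp of a start. The genes of the set without a peak in the window were Tgfb2, Ltbp3, Tgfbr2, Ski and Bmpr1b. A merged peak reached within 1000 bp of a start at 23 of the 24 (95.8%), all but Bmpr1b. The nearest peak lay 391 bp from the window at Tgfb2 (4 subpeaks), 392 bp at Ski (5 subpeaks) and 832 bp at Ltbp3 (4 subpeaks). At Tgfbr2 the peak chr9:116175108-116175310 (4 subpeaks) ended 4 bp short of the window. At Acvr1, Bmpr2 and Ltbp1 the overlapping peaks had 2, 3 and 3 subpeaks, so that at least 1 library lacked a call in each of those peaks. Bmpr2 also had a peak of 5 subpeaks, centred 811 bp upstream of its start. Acvr1, like Bmpr2, had 2 merged peaks reaching within 1000 bp of the start, and Ltbp1 had 1 at each start. The overlapping peak of Bmpr1a was the only listed promoter peak of the set. Over the series 2 of 108 MDM-listed peaks (1.85%) and 79 of 1104 YSM-listed peaks (7.16%) overlapped such a window, against 13% of the peaks in neither list. Tgfb3, Tgfbr3, Smad2, Smad4, Smad7, Skil, Acvrl1 and Bmp2 had no entry in the promoter table.

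**Figure D4:**
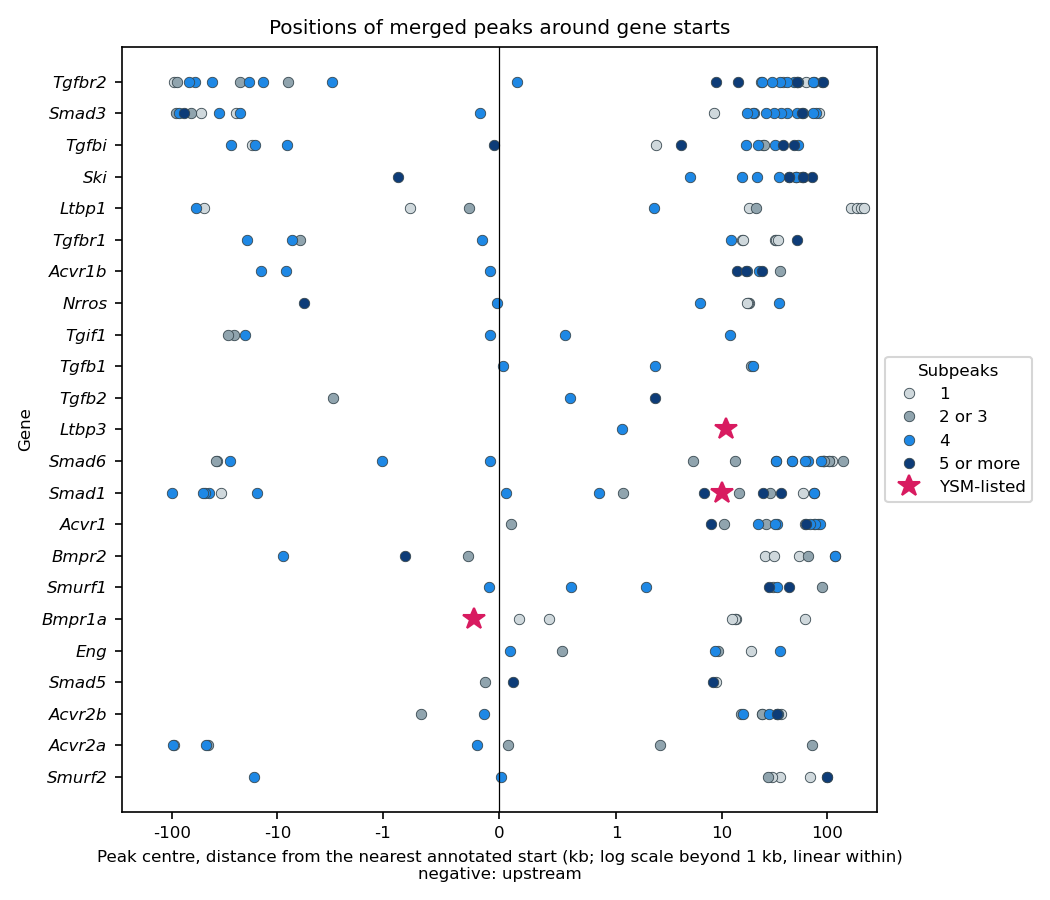
Distance of each merged peak centre from the nearest annotated start (x axis, kb, logarithmic beyond 1 kb and linear within, negative upstream) for the 23 genes with a start and a peak (y axis), shaded by subpeak number. Most of the 248 peaks lie 10 to 100 kb from a start, and the star of Bmpr1a is the 1 YSM-listed peak within 1 kb.

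A TGF-beta branch gene and a BMP branch gene were immediate neighbours at 3 places, with 0 protein-coding genes between them. Smad3 and Smad6 are separated by 195 kb on chromosome 9, and that gap held 18 merged peaks, of which 9 were nearest to each gene. At most 3 subpeaks were found in 12 of these 18. Acvrl1 and Acvr1b lie 28.7 kb apart on chromosome 15, with 6 peaks between them, 3 nearest to each. Tgfbi and Smad5 lie 63.6 kb apart on chromosome 13, and the 4 peaks between them were all nearest to Tgfbi. None of the peaks in the 3 gaps was listed, against 0.145% MDM-listed and 1.48% YSM-listed over all merged peaks. Assignment by distance divides such peaks between the branches and does not show which gene they act on.

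Short motifs were searched on both strands in the 34 promoter windows of 24 genes. The SMAD box CAGAC was found in 19 windows (55.9%), against 48.4% of 21263 windows of protein-coding genes in the promoter table. The GC-rich SMAD element GGCGCC was found in 9 windows (26.5%, against 15.3%). The palindrome GTCTAGAC was found in 1 (2.94%, against 0.226%), at base 247 of the Smad6 window, inside the capitals of the sequence printed above. The PU.1-type letters GAGGAAGT were found in 1, at base 198 of the Eng window (all windows 3.13%). The AP-1 letters TGANTCA were found in 1, at base 245 of the Ltbp3 window (all windows 6.99%), and there they overlapped a SMAD box at base 250. The Bmpr1a window held GGCGCC at base 53, inside the YSM-listed peak, and none of the other 4 motifs. The Smad1 window held none of the 5. A match describes the letters and not the binding of a factor, and windows of 1 gene can overlap.

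A further 60 genes of the pathway, such as other ligands, secreted antagonists and target genes, had 224 merged peaks at 46 of them. Of these peaks 0 were MDM-listed and 2 were YSM-listed (0.893%, against 1.48% of all merged peaks). Pmepa1, induced by TGF-beta and known to dampen SMAD activation, had its YSM-listed peak inside the gene (chr2:173257746-173257957, 2 subpeaks). Bmper, which encodes a secreted protein that binds BMPs, had its YSM-listed peak 77 bp from the gene (chr9:23222727-23223272, 3 subpeaks). Pmepa1 had 20 peaks and Bmper 16. Across both gene sets 0 listed peaks were in the MDM list and 5 in the YSM list. Over the series the MDM list held 108 peaks and the YSM list 1104.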

How the data were processed

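Peak lists of the 4 ATAC-seq libraries were used. Bowtie2 2.2.5, Trimmomatic 0.39, HOMER and Picard were applied by the authors on mm10, per the submitters' processing notes, and the authors merged the per-library peaks with HOMER mergePeaks, per the file headers. The deposited differential lists are tied to DESeq2 by their names, and the sources used here do not give their thresholds, the read depth or any Tn5 shift. The fifth column of the deposited lists is undescribed and was not used. Subpeak number was read from the peak name and checked on coordinates: all 15127 peaks with 1 subpeak were 201 bp wide, and 0 peaks were wider than their subpeaks allow. Each of the 1212 listed peaks had the coordinates of a merged peak.

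Peaks were assigned with Python 3.11.15 and numpy 2.4.6 to RefSeq protein-coding genes (GRCm38.p6), and a peak inside more than 1 gene was given to each (1 peak of the set). On simulated data with known positions 2000 of 2000 peaks were assigned correctly. Only positions nearest to their intended gene by the same distance rule were kept, and those outside genes lay past the end with the higher coordinate. The check therefore covers the running of the rule and not the choice of the rule. Genes, lists and branches were chosen with earlier results of these data known. Named genes were those with a listed peak, the leading genes of each branch by number of peaks or subpeaks, and those without a peak or a promoter peak, and others are named by role. The length range was chosen after seeing the data. Of 10251 protein-coding genes in the promoter table, 10250 had a merged peak within 1000 bp of a start. The planned comparison of promoter overlap with that table is therefore given with this limit. Gene ends over all protein-coding genes were added as an unplanned comparison. Motif shares over the table describe promoters near peaks. Wilson intervals (95%, scipy 1.17.1) cover counting error only. Alternatives changed the distance limit, the competing genes, ties, the peak position, the minimum of subpeaks and the treatment of neighbours.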

Additional observations from a re-analysis of the deposited data

How the results depend on the processing

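Of 91 values under an alternative, over 12 results, 76 stayed close to the first value and 15 moved. A count was taken as close within 1.5 times the first value, and a share as close inside the 95% Wilson interval of the first share. By that wide interval the YSM-listed share counted as close at 1.63% with peaks inside genes alone and at 0.556% with at least 4 subpeaks, although both lie over 1.5 times from the first 0.99%. MDM-listed peaks numbered 0 under every alternative. Most alternatives only kept or regrouped peaks of the first set, so that 0 was fixed in advance. Such values are among the 76 and say nothing about stability. The wider set of 678 peaks with any member gene within 100 kb also held 0. With peaks of at least 4 subpeaks the YSM-listed count was 1, at Bmpr1a, and the set held 180 peaks, 102 in the TGF-beta branch, 57 in the BMP branch and 21 at shared genes. With peaks inside genes alone these numbers were 184, 91, 66 and 27. With any member gene within 100 kb, chosen after seeing the data, the set held 678 peaks and 13 YSM-listed peaks. With at least 2 subpeaks, the share with at most 3 was 19% in the TGF-beta branch and 32.9% in the BMP branch. With neighbours within 1000 bp counted as 1 site it was 37.8% in the BMP branch. With genes of every annotated kind, 77.3% of peaks lay inside their gene. The settings differ in the peaks kept, in the genes that compete for them or, for joined neighbours, in subpeaks being added together. Shares that a setting fixes by construction were not computed. Leaving out a replicate was not possible because the lists carry no value per library. No paired analysis was possible because the lists carry no value per library and no test was made. Read depth, which limits which peaks were called, was not analysed here.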

Other observations

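Within 100 kb of the 32 genes lay 678 merged peaks, of which 0 were MDM-listed and 13 were YSM-listed (1.92%, against 1.48% of all merged peaks). Besides those at Bmpr1a, Smad1 and Ltbp3, 10 YSM-listed peaks had another nearest gene. Near Tgfb1, 3 lay inside Hnrnpul1, at 26555 bp, 35058 bp and 42107 bp from Tgfb1, with 5, 4 and 3 subpeaks. Near Eng, 2 lay inside Ak1, at 14579 bp and 16960 bp, with 4 and 3 subpeaks. Smad3, Tgfb3, Bmpr1a and Nrros each had 1 inside a neighbouring gene, Aagab, Ift43, Ldb3 and Fbxo45, at 37306 to 68612 bp. Smad7 had 1 at 18445 bp, which lay nearer to Ctif, at 16825 bp. Which genes these peaks act on was not tested.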
